A study of Gallus gallus with 12 samples.

Results

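The miR-23, miR-27 and miR-24 hairpins are precursors that vertebrate genomes carry side by side and transcribe together as a cluster. Every hairpin of the chicken-aligned table whose name is gga-mir-23, gga-mir-24 or gga-mir-27, with an optional letter, was taken. This gave 3 of 850 hairpins, namely gga-mir-23b, gga-mir-27b and gga-mir-24. The same numbers gave 7 of 1913 hairpins in the human-aligned table of the same 12 libraries, which serves as a check on the alignment and not as independent evidence. In the RefSeq gene table of the chicken genome (GRCg7b), the genes of the 3 chicken hairpins lie on chromosome Z in the order MIR23B, MIR27B, MIR24-2, with 0 other annotated genes between the first and the last. The hairpins were chosen by name and no measured value enters that rule, but they were put forward with earlier results of these data known. The p values below come from fits over whole tables and describe these hairpins. They are no independent support for a pattern that led to the choice.

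The libraries are small RNA from sorted cells of chick embryos grown to Hamburger-Hamilton stages 4 to 5 (HH4-5). All embryos received a GFP vector by electroporation, along with a construct meant either to overexpress human miR-302 or to delete the chick miR-302, and samples given the deletion construct carry the label "knocked-down". Cells with GFP (GFP+) and without it (GFP−) were collected by FACS into Trizol, and there were 3 libraries in each of 4 groups: overexpression GFP+, overexpression GFP−, knockdown GFP+ and knockdown GFP−. Each GFP+ group carries both the GFP vector and a miR-302 construct, and no group had the GFP vector alone, so an effect of the construct and one of electroporation or GFP cannot be told apart. Embryo numbers, pooling and the sharing of embryos between GFP+ and GFP− samples are not given in the labels, so a p value reflects only how these samples vary, which may be technical. In mixed sorted cells, fewer cells of a type and less RNA per cell cannot be told apart.

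The group names are those of the labels, and the targeted family did not follow all of them. The miR-302 and miR-367 hairpins of the chicken-aligned table summed to 4010, 8458 and 4980 normalized reads in the libraries labelled overexpression GFP+, against 6193, 17950 and 10060 in overexpression GFP− libraries. In the human-aligned table the sums were 2562, 4987 and 3132 in overexpression GFP+ and 2499, 8841 and 3877 in overexpression GFP− libraries, so neither table showed a higher level in all cells labelled as overexpressing. In the knockdown arm the chicken-aligned sums were 17880, 11880 and 17600 in GFP+ and 22240, 17800 and 19770 in GFP− libraries.

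Values are the normalized reads that the authors deposited, and whole reads could be recovered from them. Depth differed widely between groups. The chicken-aligned table held 1292 to 3856 hairpin reads in overexpression GFP+ libraries, 7546 to 277637 in overexpression GFP−, 49276 to 82211 in knockdown GFP+ and 277633 to 435716 in knockdown GFP− libraries. The worth of 1 read ran from 0.0999 to 24.4 normalized reads, and in overexpression GFP+ replicates 1, 2 and 3 it was 6.68, 24.4 and 15.9. Across the 3 overexpression GFP+ libraries the 3 hairpins together had 34 reads, against 2231, 932 and 4450 in overexpression GFP−, knockdown GFP+ and knockdown GFP− libraries. The chicken-aligned values of the cluster in overexpression GFP+ cells rest on those 34 reads, and the human-aligned values on 29. Intervals given with reads cover counting error only. Those of a ratio to the GFP− level take that level as exact, so they are too narrow. Such a ratio compares levels at the deposited scaling, not at equal depth in hairpin reads.

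As background, one primary transcript is cut into all 3 hairpins, yet the mature miRNAs have unrelated seeds, the bases that pair with messenger RNAs, and so repress different sets of targets. Partners of a cluster often differ in level after processing and turnover, although they share a promoter. In mammals, where a further copy of the cluster exists, its miRNAs are known from endothelial cells and the growth of vessels, and from muscle and fat cell differentiation. miR-23 is known in human cells as a repressor of glutaminase, miR-27 in mouse and human cells as a brake on the formation of fat cells, and miR-24 in human cells as a repressor of cell-cycle genes. No mature arm was above 0 in either table, so all values are for hairpins.

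A hairpin was tested where its mean over all libraries reached 10 normalized reads, which 132 of the 850 chicken hairpins and all 3 of the cluster did. gga-mir-24 showed its lowest values in overexpression GFP+ libraries, at 20.1, 24.4 and 47.6 normalized reads, which are 3, 1 and 3 reads. Overexpression GFP− libraries had 70.3, 124 and 141.8 normalized reads. Its knockdown GFP+ libraries lay close together at 65.0, 57.5 and 61.3, against 78.0, 101 and 91.3 in knockdown GFP− libraries. In each arm, all GFP+ libraries lay below all GFP− libraries.

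gga-mir-27b showed another order. It stood at 16.5, 33.3 and 34.0 normalized reads in knockdown GFP+ libraries and at 16.1, 9.77 and 16.0 in knockdown GFP− libraries. The GFP+ libraries were all above the GFP− libraries there, but replicate 1 only just. In the overexpression arm it had 40.1, 24.4 and 15.9 normalized reads in GFP+ libraries, that is 6, 1 and 1 reads, against 31.3, 29.5 and 23.2 in GFP− libraries. Those groups overlapped.

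gga-mir-23b was the most even of the 3 outside the shallow libraries. It had 107, 96.5 and 83.6 normalized reads in knockdown GFP+ libraries, against 102, 78.0 and 80.1 in knockdown GFP− libraries. Overexpression GFP+ libraries spread widely, at 53.5, 0 and 174 normalized reads, against 66.4, 99.9 and 104 in overexpression GFP− libraries. The 0 is in replicate 2, whose whole depth was 1292 reads, and there the limit for a hairpin with no read, set at 3 reads, was 73.1 normalized reads. At that limit the library does not lie apart from the other overexpression libraries.

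**Figure D1:**
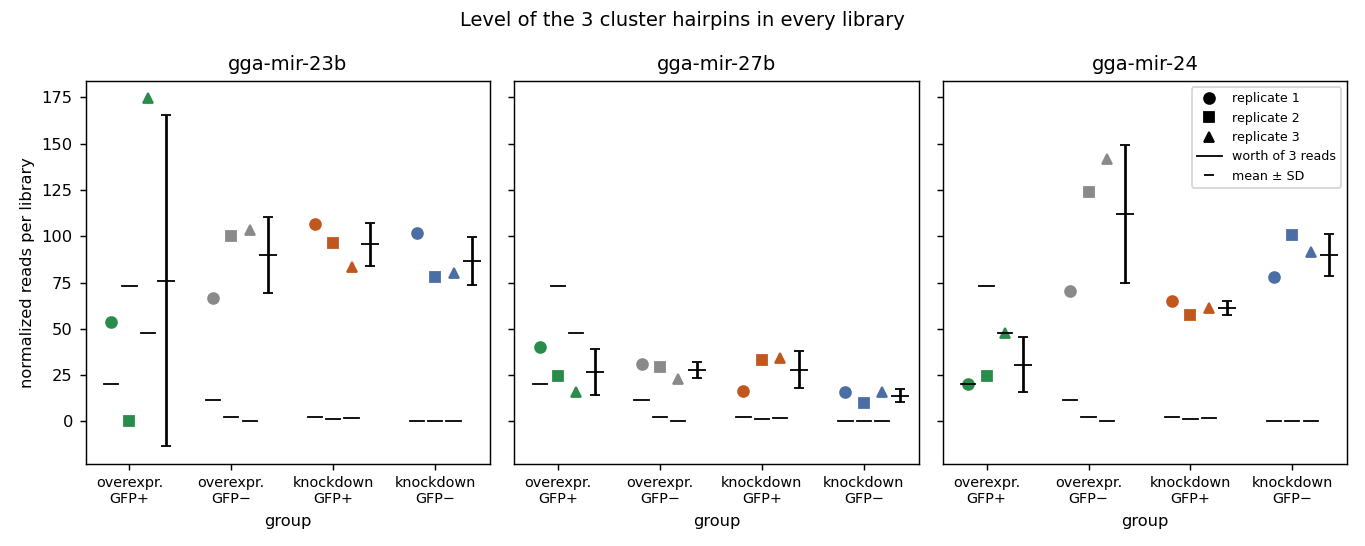
Normalized reads of gga-mir-23b, gga-mir-27b and gga-mir-24 in each of the 12 libraries, as points, with the group mean and SD (n = 3) and the worth of 3 reads in each library as a line. gga-mir-24 lies lower in GFP+ than in GFP− libraries of both arms, gga-mir-27b lies higher in GFP+ libraries of the knockdown arm, and gga-mir-23b spans 0 to 174 in overexpression GFP+ libraries.

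Ordered by group means, gga-mir-24 averaged 30.7 ± 14.8 normalized reads in overexpression GFP+, 61.3 ± 3.72 in knockdown GFP+, 90.0 ± 11.4 in knockdown GFP− and 111.9 ± 37.2 in overexpression GFP− cells (SD, n = 3 each). The last pair of that order overlapped, and the other neighbours did not. gga-mir-27b averaged 26.8 ± 12.3 in overexpression GFP+, 28.0 ± 4.26 in overexpression GFP−, 27.9 ± 9.93 in knockdown GFP+ and 13.9 ± 3.61 in knockdown GFP− cells, so the first 3 of these groups did not differ beyond their spread, and knockdown GFP− cells overlapped with overexpression GFP+ cells alone. gga-mir-23b averaged 76.0 ± 89.4 in overexpression GFP+, 90.0 ± 20.5 in overexpression GFP−, 95.6 ± 11.5 in knockdown GFP+ and 86.6 ± 13.2 in knockdown GFP− cells, and no pair of these groups was separate.

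The first comparison set GFP+ against GFP− cells of the arm labelled overexpression. gga-mir-24 was the 1 of 3 hairpins of the cluster called in this comparison, and it was lower in GFP+ cells, with a log2 fold of −1.87 on the log2(value + 1) scale (SE 0.42, 95% interval −2.80 to −0.95, limma with Benjamini-Hochberg adjustment over the 132 tested hairpins, adjusted p = 0.00891). Of all tested hairpins, 18.9% were called here, with 9.85% lower and 9.09% higher, and the groups stood apart with GFP+ lower for 22% of them. The median log2 fold of all tested hairpins was −0.67. The call rests on 7 reads of gga-mir-24 in GFP+ cells. At the deposited scaling the GFP− level would give 28.4, a ratio of 0.247 (exact Poisson 95% interval 0.0991 to 0.508). On recovered reads edgeR gave −1.95 (adjusted p = 0.00979) and DESeq2 −2.04 (adjusted p = 0.00645). The limma adjusted p was 0.062 with no filter on low values and 0.0531 without overexpression GFP− replicate 3, so either change ended the call.

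gga-mir-23b and gga-mir-27b were not called in the same comparison. gga-mir-27b had a log2 fold of −0.15 (SE 0.55, 95% interval −1.35 to 1.06, limma adjusted p = 0.858), and its 8 reads in GFP+ cells compare with 7.1 at the GFP− level, a ratio of 1.13 (0.487 to 2.22). gga-mir-23b had a log2 fold of −2.07 (SE 1.39, limma adjusted p = 0.283), which the library with no read decides, since without overexpression GFP+ replicate 2 the fold was 0.13. By reads, gga-mir-23b had 19 in GFP+ cells against 22.8 at the GFP− level, a ratio of 0.832 (0.501 to 1.3). The upper end of the gga-mir-24 interval, 0.508, just reaches the lower ends of the other intervals, 0.487 and 0.501. These intervals leave out the spread between libraries and the counting error of the GFP− level.

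The second comparison set GFP+ against GFP− cells of the arm labelled knockdown, where depth was far greater. Of the 3 hairpins 0 were called by limma, edgeR or DESeq2, and 0 had an unadjusted limma p under 0.05, as 22.7% of all tested hairpins had, where 10.6% of all tested hairpins were called, 0.758% lower and 9.85% higher. gga-mir-27b had a log2 fold of 0.92 (SE 0.55, 95% interval −0.29 to 2.12, limma adjusted p = 0.428, DESeq2 adjusted p = 0.0723). gga-mir-24 had −0.54 (SE 0.42, 95% interval −1.47 to 0.39, limma adjusted p = 0.573) and gga-mir-23b 0.14 (SE 1.39, limma adjusted p = 0.984). The groups stood apart for gga-mir-27b with GFP+ higher, as for 21.2% of all tested hairpins, and for gga-mir-24 with GFP+ lower, as for 26.5%. These shares of all hairpins are so large that standing apart is not particular to either hairpin.

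Counting error alone was small in the knockdown arm. GFP+ cells had 150 reads of gga-mir-27b where the GFP− level would give 70.4, a ratio of 2.13 (exact Poisson 95% interval 1.8 to 2.5). They had 306 reads of gga-mir-24 where the GFP− level would give 455, a ratio of 0.673 (0.6 to 0.753). gga-mir-23b had 476 reads where 437 would be given, a ratio of 1.09 (0.992 to 1.19). The 3 intervals, which take the GFP− level as exact, do not overlap. In the human-aligned table the ratios were 0.829 (0.752 to 0.91) for miR-23, 0.737 (0.657 to 0.823) for miR-24 and 2.08 (1.76 to 2.43) for miR-27, each summed over its hairpins, so there miR-23 lay below 1 and its interval overlapped that of miR-24. The limma fit takes its spread from all 12 libraries, the shallow ones included.

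The summed level of the 3 hairpins was nearly equal in both groups of the knockdown arm in the chicken-aligned table, but not in the human-aligned table. The sum was 188.0, 187.4 and 179.0 normalized reads in knockdown GFP+ libraries, against 195.9, 188.4 and 187.4 in knockdown GFP− libraries. The log2 difference of the sums was −0.044 (SE 0.03, exact two-sided permutation p = 0.2, 0 of 3 same-numbered pairs higher in GFP+ cells). The human-aligned sum was 171.6, 200.7 and 194.5 in knockdown GFP+ libraries, all below the 223.5, 215.7 and 213.5 of knockdown GFP− libraries (log2 difference −0.206, SE 0.071, exact permutation p = 0.1). Taken as a share of all chicken-aligned hairpin values, the cluster made up 0.44%, 0.479% and 0.399% in knockdown GFP+ and 0.423%, 0.431% and 0.431% in knockdown GFP− libraries. The human-aligned share was 0.702%, 0.866% and 0.766% in knockdown GFP+ and 0.875%, 0.861% and 0.944% in knockdown GFP− libraries. Those overlap, so the separation of the human-aligned sums depends on the scaling. In the overexpression arm the sum was 113.6, 48.75 and 237.9 in GFP+ libraries, against 168.0, 253.1 and 268.6 in GFP− libraries (log2 difference −1.03, SE 0.69, exact permutation p = 0.2). As a share of all chicken-aligned hairpin values it was 0.441%, 0.155% and 0.838% in overexpression GFP+ and 0.57%, 0.587% and 0.677% in overexpression GFP− libraries. The log2 difference of these shares was smaller, at −0.661 (SE 0.714, exact permutation p = 0.5). With 3 libraries against 3, no exact permutation p can go below 0.1.

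The GFP effects of the arms were then set against each other. The difference of the log2 folds, overexpression minus knockdown, was −1.33 for gga-mir-24 (SE 0.60, 95% interval −2.64 to −0.02, limma unadjusted p = 0.0471, adjusted p = 0.67). It was −1.06 for gga-mir-27b (SE 0.78) and −2.22 for gga-mir-23b (SE 1.96), both with a limma adjusted p of 0.818. No hairpin of the table was called for this difference by limma, edgeR or DESeq2 (0%), and 6.82% had an unadjusted limma p under 0.05. The call of gga-mir-24 in the overexpression arm alone does not show that the arms differ.

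GFP− cells of the overexpression arm were also compared with GFP− cells of the knockdown arm. Here gga-mir-27b had 31.3, 29.5 and 23.2 normalized reads in overexpression GFP− libraries, all above the 16.1, 9.77 and 16.0 of knockdown GFP− libraries. Its log2 fold was 0.98 (SE 0.55, limma adjusted p = 0.813), and 9.09% of all tested hairpins stood apart with overexpression higher. gga-mir-24 had 0.26 (SE 0.42) and gga-mir-23b 0.04 (SE 1.39), both with a limma adjusted p of 0.989 and overlapping groups. limma called 0 hairpins of the table (0%), with 10 at an unadjusted p under 0.05 (7.58%), edgeR called 0 and DESeq2 8, none of them a hairpin of the cluster. The knockdown GFP− libraries stand in this comparison and in that of GFP+ with GFP− cells of the knockdown arm, so the low gga-mir-27b values there enter both folds.

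Whether the partners kept their proportions was read from ratios of reads within each library, which do not depend on how a library was scaled. The log2 differences of ratios and their tests used log2(value + 1) of each family, where the added 1 does depend on the scaling. The reads are not corrected for hairpin length, so the ratios are compared between libraries only. miR-27 to miR-24 was 0.253, 0.579 and 0.555 in knockdown GFP+ libraries, against 0.206, 0.097 and 0.175 in knockdown GFP− libraries. All 3 same-numbered pairs were higher in GFP+ cells, and the groups did not overlap. The log2 difference was 1.46 (SE 0.49, exact two-sided permutation p = 0.1, the smallest this design allows).

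miR-23 to miR-24 moved the same way in that arm, at 1.64, 1.68 and 1.36 in knockdown GFP+ libraries, against 1.3, 0.775 and 0.877 in knockdown GFP− libraries. The log2 difference was 0.69 (SE 0.24, exact permutation p = 0.1, paired sign-flip p = 0.25, 3 of 3 pairs higher). With 3 pairs no sign-flip p can go below 0.25, so that value does not speak against the difference. miR-23 to miR-27 was 6.47, 2.9 and 2.46 in knockdown GFP+ and 6.34, 7.98 and 5.01 in knockdown GFP− libraries, which overlap (log2 difference −0.77, SE 0.45, exact permutation p = 0.3). Replicate 1 was alike in both groups, and the ratio of miR-23 to miR-27 was lower in GFP+ cells in replicates 2 and 3.

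In the overexpression arm miR-27 to miR-24 was 2.0, 1.0 and 0.333 in GFP+ libraries, from 6 and 3, 1 and 1, and 1 and 3 reads. Overexpression GFP− libraries had 0.444, 0.238 and 0.163. All 3 same-numbered pairs were higher in GFP+ cells, although the groups overlapped (log2 difference 1.73, SE 0.84, exact permutation p = 0.2). miR-23 to miR-24 was 2.67 and 3.67 in overexpression GFP+ replicates 1 and 3, against 0.944, 0.808 and 0.731 in overexpression GFP− libraries, and it has no value in replicate 2, where no gga-mir-23b read was seen. Between GFP− cells of the arms, miR-23 to miR-27 was 2.12, 3.39 and 4.48 in overexpression and 6.34, 7.98 and 5.01 in knockdown libraries (log2 difference −0.94, SE 0.36, exact permutation p = 0.1). The other ratios overlapped between GFP− groups, with log2 differences of −0.22 (miR-23 to miR-24, exact permutation p = 0.6) and 0.72 (miR-27 to miR-24, exact permutation p = 0.3). The design gives 9 ratio comparisons in all, with the miR-23 ratios of overexpression GFP+ cells taken from the human-aligned table, and an exact p of 0.1 became 0.225 after Benjamini-Hochberg adjustment over these 9.

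The same reads can be given as shares of the cluster. miR-24 made up 34.6% (95% Wilson interval 28.6% to 41.1%), 30.7% (26.4% to 35.4%) and 34.3% (29.3% to 39.6%) of the cluster's reads in knockdown GFP+ libraries. In knockdown GFP− libraries it made up 39.8% (37.3% to 42.5%), 53.4% (50.6% to 56.2%) and 48.7% (46.5% to 51.0%). The chicken-aligned miR-24 share was thus lower in every GFP+ library of this arm, with replicate 1 within counting error. The human-aligned share was 39.7%, 31.5% and 35.7% in knockdown GFP+ and 35.8%, 45.4% and 43.2% in knockdown GFP− libraries. Those overlap, with replicate 1 reversed. In the chicken-aligned table miR-27 made up 8.76%, 17.8% and 19.0% in knockdown GFP+ and 8.2%, 5.18% and 8.53% in knockdown GFP− libraries. miR-23 averaged 51.6% ± 5.0 in knockdown GFP+ and 45.4% ± 5.76 in knockdown GFP− cells (SD, n = 3 each), which overlap. In overexpression GFP+ libraries the miR-24 share was 17.6%, 50.0% and 20.0%, from 17, 2 and 15 reads of the cluster, against 41.9%, 48.9% and 52.8% in overexpression GFP− libraries.

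**Figure D2:**
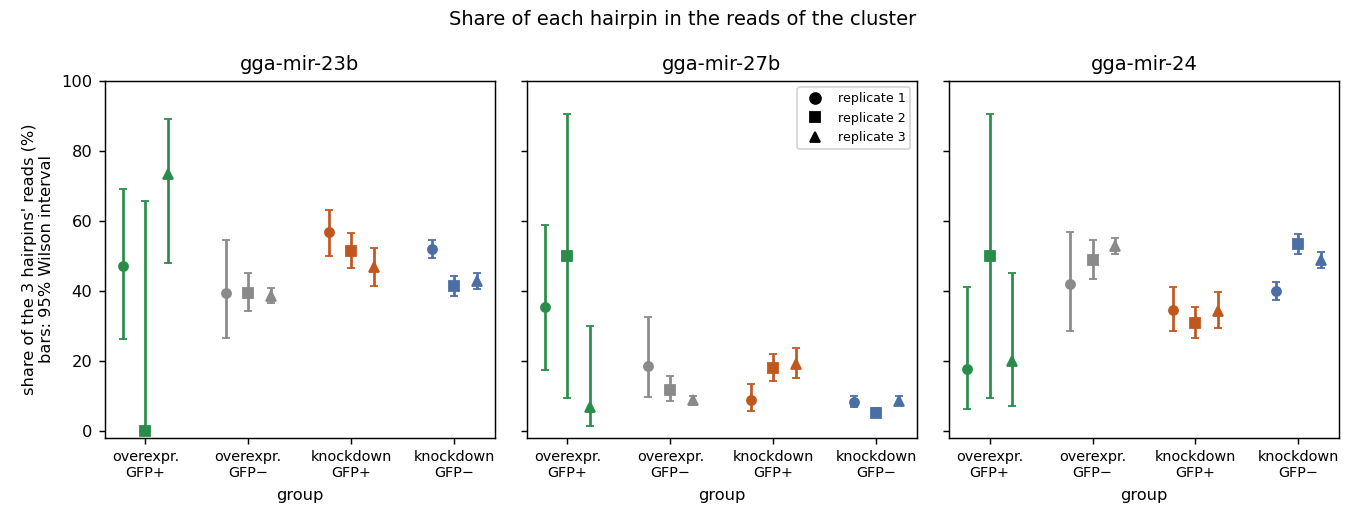
Share of the cluster's chicken-aligned reads held by gga-mir-23b, gga-mir-27b and gga-mir-24 in each of the 12 libraries, in percent of reads not corrected for length, with 95% Wilson intervals as bars and replicates as symbols. In the knockdown arm miR-24 holds 30.7% to 34.6% in GFP+ libraries and 39.8% to 53.4% in GFP− libraries, and overexpression GFP+ replicate 2 has only 2 reads.

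The cluster was then set among all 132 tested hairpins. Counted from the lowest log2 fold, gga-mir-23b was at rank 27, gga-mir-24 at rank 33 and gga-mir-27b at rank 86 in the overexpression arm. In the knockdown arm gga-mir-24 was at rank 40, gga-mir-23b at rank 90 and gga-mir-27b at rank 105. The median log2 fold of all tested hairpins was −0.67 in the overexpression arm and −0.17 in the knockdown arm. In both arms gga-mir-24 lay below that median and gga-mir-27b above it. The limma intervals of gga-mir-27b included the median in both arms (−1.35 to 1.06 and −0.29 to 2.12). That of gga-mir-24 included it in the knockdown arm (−1.47 to 0.39), so these positions lie within error. The fold of gga-mir-23b in the overexpression arm rests on the library with none of its reads. Of all tested hairpins 67.4% in the overexpression arm and 62.9% in the knockdown arm had a log2 fold below 0, so a low fold is common here.

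**Figure D3:**
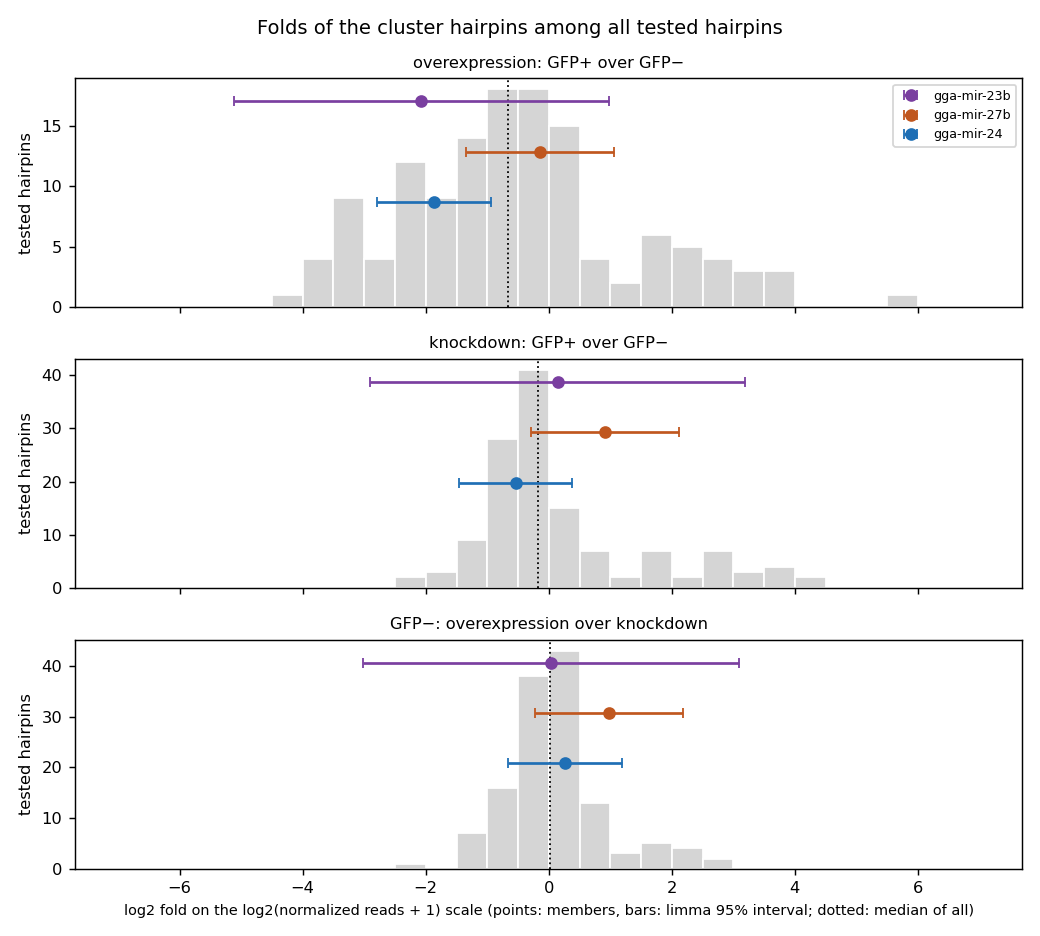
Grey bars count the 132 tested hairpins by log2 fold, for GFP+ over GFP− in each arm and for overexpression over knockdown in GFP− cells, and the dotted line is their median. Points with 95% limma intervals are the 3 hairpins of the cluster, of which gga-mir-24 lies below the median of both arms and the interval of gga-mir-23b is the widest in each panel.

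Of the other hairpins on chromosome Z, 45 were in the table, 29 were above 0 and 6 were tested, and 1 of these was called higher and 0 lower in each arm. That one was gga-mir-122-1, a liver miRNA, at 1115 normalized reads in overexpression GFP+ and 79.7 in overexpression GFP− cells (log2 fold 3.72, SE 0.50, limma adjusted p = 0.000687). gga-mir-2954, a sex-linked bird miRNA, gga-mir-7-1 and gga-mir-9-2, both known from neural cells, were not called. The median log2 fold of these 6 was 0.09 in the overexpression arm and −0.09 in the knockdown arm, against −0.67 and −0.17 for all tested hairpins.

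Markers of cell types in which the cluster is known were read beside it. gga-mir-126, the defining endothelial miRNA, was lower in GFP+ cells of the overexpression arm, at 26.7 to 73.1 normalized reads in GFP+ libraries (9 reads in all) against 264.6 to 463.5 in GFP− libraries (log2 fold −3.19, SE 0.44, limma adjusted p = 0.000687). In the knockdown arm it had 32.9 to 58.5 in GFP+ and 98.3 to 159.1 in GFP− libraries (log2 fold −1.41, limma adjusted p = 0.0751). It was above 0 in all 12 libraries, and its GFP+ libraries lay below its GFP− libraries in both arms, as those of gga-mir-24 did. So did those of 22% of all tested hairpins in the overexpression arm and 26.5% in the knockdown arm, so this is not particular to the pair. Between GFP− groups gga-mir-126 stood apart with overexpression higher (log2 fold 1.54, limma adjusted p = 0.547). There gga-mir-24 had 0.26 and overlapping groups. The part of gga-mir-126 in the values of gga-mir-24 was not tested.

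Of 10 vessel-linked hairpins (miR-130, miR-132, miR-210, miR-221, miR-222, miR-296 and miR-378), 7 were above 0 and 5 were tested. gga-mir-222a was lower in GFP+ cells of the overexpression arm (log2 fold −2.02, SE 0.52, limma adjusted p = 0.0165), and 0 were called in the knockdown arm. Their median log2 fold was −1.16 in the overexpression and −1.0 in the knockdown arm, against −0.67 and −0.17 for all tested hairpins. Of the 5, 4 had a fold below 0 in the overexpression arm and 5 in the knockdown arm. The groups of gga-mir-130b overlapped in the overexpression arm (log2 fold −0.40). Summed, the 10 vessel-linked hairpins had 267.3 to 487.5 normalized reads in overexpression GFP+ and 448.8 to 857.8 in overexpression GFP− libraries. In the knockdown arm they had 204.5 to 334.8 in GFP+ and 433.6 to 731.1 in GFP− libraries. Of 8 mesenchyme hairpins 5 were tested, and gga-mir-143, known from smooth muscle, was lower in overexpression GFP+ than in overexpression GFP− cells (log2 fold −1.99, limma adjusted p = 0.0187). Of these 5, 3 had a log2 fold below 0 in that arm, with a median of −0.38, while gga-mir-199-1 and gga-mir-199-2 had 0.58 and 0.32, neither called by limma. The mesenchyme sum was 127 to 317.2 in overexpression GFP+ and 265.4 to 364.1 in overexpression GFP− libraries, and 134.9 to 200.7 in knockdown GFP+ and 170.2 to 257.7 in knockdown GFP− libraries. Of 10 muscle and heart hairpins 3 were tested and 0 were called in either arm by limma, with median log2 folds of −3.71 and −2.40. Each of these medians is the fold of a miR-1a hairpin. The first is that of gga-mir-1a-1, which had no read in overexpression GFP+ replicate 2, so the added 1 weighs on it. Of the 3, 3 had a fold below 0 in the overexpression arm and 2 in the knockdown arm. There gga-mir-206 went the other way, with a log2 fold of 0.91 and overlapping groups. The sum of the muscle and heart hairpins was 24.4 to 190.3 in overexpression GFP+ and 266.2 to 1067 in overexpression GFP− libraries, and 71.1 to 165.1 in knockdown GFP+ and 249.9 to 688.3 in knockdown GFP− libraries. Blood hairpins numbered 5, of which 4 were above 0, gga-mir-155 was at 0 in every library and none passed the filter. Their sum was 6.68 to 47.6 in overexpression GFP+ and 7.29 to 50.0 in overexpression GFP− libraries, and 23.98 to 39.9 in knockdown GFP+ and 8.29 to 14.4 in knockdown GFP− libraries, so blood hairpins lay higher in GFP+ libraries of the knockdown arm. The part of these lists in the cluster's values was not tested.

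Other lists lay on either side. Of 13 let-7 hairpins, which mark differentiating cells, 10 were tested and 8 were called higher in GFP+ cells of each arm, with median log2 folds of 2.43 and 2.93. Their sum was 1243 to 1855 normalized reads in overexpression GFP+ and 148.5 to 451.3 in overexpression GFP− libraries, and 3276 to 4161 in knockdown GFP+ and 308.2 to 691.6 in knockdown GFP− libraries. Of 8 liver and gut hairpins 3 were tested, and 2 were called higher in the overexpression arm and 3 in the knockdown arm. Their sum was 974.9 to 1982 in overexpression GFP+ and 66.4 to 134.3 in overexpression GFP− libraries, and 2486 to 3272 in knockdown GFP+ and 132.9 to 496.4 in knockdown GFP− libraries. HH4-5 embryos have no liver, and the part of these hairpins in the cluster's values was not tested. Of 8 epithelial hairpins 3 were tested and 0 called by limma, with median log2 folds of −2.99 and −0.57. The first is the fold of gga-mir-429, which had reads in overexpression GFP+ replicate 1 alone (group mean 8.91, SD 15.4), so the added 1 weighs on it. In that arm gga-mir-200a had −3.05 and gga-mir-200b −0.66. The added 1 weighs on gga-mir-200a too, which had a single read in overexpression GFP+ cells, in replicate 1 (group mean 2.23, SD 3.86). The epithelial hairpins had 14 reads in all in overexpression GFP+ libraries. The epithelial sum was 24.4 to 63.4 in overexpression GFP+ and 55.7 to 134.6 in overexpression GFP− libraries, and 31.8 to 140.4 in knockdown GFP+ and 78.8 to 124.1 in knockdown GFP− libraries. Of 5 early embryo hairpins (miR-302 and miR-367) all were tested, with 2 called lower in the overexpression arm and 0 called in the knockdown arm.

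The hairpins most like the summed cluster by Pearson's r of log2(value + 1) over the 12 libraries were gga-mir-425 (0.94), gga-mir-101-2, gga-mir-183 and gga-mir-101-1 (0.938 each) and gga-mir-31 (0.922). These points share library scaling and depth, and all 5 hairpins had no read in overexpression GFP+ replicate 2. Over the other 11 libraries their r was 0.704 to 0.724 and 0 of them stayed among the first 5, which were then gga-mir-10b, gga-mir-143, gga-mir-18b, gga-mir-7-1 and gga-mir-7-3.

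The human-aligned table gave gga-mir-24 a close match. hsa-mir-24-2 had 23.6, 38.7 and 36.6 normalized reads in overexpression GFP+ libraries (3, 1 and 2 reads), against 73.7, 154 and 150 in overexpression GFP− libraries. Its log2 fold was −1.86 (SE 0.40, limma adjusted p = 0.00778), in a comparison in which 18.4% of 114 tested human hairpins were called 11.4% were called lower and 17.5% stood apart with GFP+ lower. In the knockdown arm it had 68.1, 63.2 and 69.5 in GFP+ and 80.0, 97.9 and 92.3 in GFP− libraries, again without overlap (log2 fold −0.42, SE 0.40, limma adjusted p = 0.632, where 8.77% of human hairpins were called and 21.1% stood apart with GFP+ lower). hsa-mir-24-1, whose main mature miRNA is the same as that of hsa-mir-24-2, was at 0 in all 12 libraries.

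miR-23 did not carry over as well. Most of its human-aligned reads lay on hsa-mir-23a and not on hsa-mir-23b, the name that matches the chicken hairpin. The mature sequences of both are nearly the same, and the rule by which reads matching both were counted is not stated in the labels or files. hsa-mir-23a had 83.5, 67.1 and 87.5 normalized reads in knockdown GFP+ libraries, all below the 112, 101 and 93.6 of knockdown GFP− libraries (log2 fold −0.36, SE 0.41, limma adjusted p = 0.706), whereas gga-mir-23b had overlapping groups and a log2 fold of 0.14. In overexpression GFP+ libraries hsa-mir-23a had 39.4, 77.3 and 110 normalized reads, including 2 reads in replicate 2, where gga-mir-23b had 0, against 70.0, 118 and 110 in overexpression GFP− libraries (log2 fold −0.47, limma adjusted p = 0.453).

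Among the 11 libraries with chicken-aligned miR-23 reads, the ratio of human-aligned to chicken-aligned miR-23 reads split by GFP. It was 0.75 (6 to 8 reads) and 0.636 (7 to 11 reads) in overexpression GFP+ replicates 1 and 3. In knockdown GFP+ libraries it was 0.846, 0.926 and 0.94. It was 1.18, 1.16 and 1.31 in overexpression GFP− and 1.28, 1.49 and 1.44 in knockdown GFP− libraries. Overexpression GFP+ replicate 2, with 2 human-aligned and 0 chicken-aligned reads, has no ratio and went the other way. Outside that library, the chicken-aligned and human-aligned tables disagree on miR-23 in a way that goes with GFP. The cause was not tested, and the shift was not set against that of all hairpin reads. For miR-24 the ratio was 1.0, 1.0 and 0.667 in overexpression GFP+ and 1.11, 1.13 and 1.18 in overexpression GFP− libraries, which do not overlap. It was 1.0, 1.09 and 0.945 in knockdown GFP+ and 1.07, 1.06 and 1.13 in knockdown GFP− libraries, which do. For miR-27 it was 1.0 in each overexpression GFP+ library and 1.0 to 1.17 in overexpression GFP− libraries, and 0.526, 1.41 and 0.754 in knockdown GFP+ and 1.18 to 1.3 in knockdown GFP− libraries.

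With miR-23 and miR-27 summed over their human hairpins, the balance in the knockdown arm was less clear. miR-27 to miR-24 was 0.133, 0.75 and 0.442 in GFP+ and 0.234, 0.108 and 0.201 in GFP− libraries, and miR-23 to miR-24 was 1.39, 1.42 and 1.36 in GFP+ and 1.56, 1.09 and 1.11 in GFP− libraries. Both overlap, with replicate 1 reversed, so the separation of these ratios in the chicken-aligned table depends on the alignment. Among overexpression libraries the human-aligned miR-23 to miR-24 ratio was 2.0, 2.0 and 3.5 in GFP+ libraries. These ratios rest on 6 and 3, 2 and 1, and 7 and 2 reads. All lay above the 1.0, 0.83 and 0.812 of GFP− libraries (log2 difference 1.43, SE 0.28, exact permutation p = 0.1, paired sign-flip p = 0.25). Each of these p values is the smallest that its test allows here. hsa-mir-27b had 7.26, 30.7 and 30.1 normalized reads in knockdown GFP+ and 15.4, 8.85 and 15.2 in knockdown GFP− libraries, which overlap (log2 fold 0.54, limma adjusted p = 0.754). hsa-mir-27a, with 35 reads in knockdown GFP+ replicate 2, and hsa-mir-23c, with 5 reads in all, did not pass the filter, and hsa-mir-23b had log2 folds of −0.67 in the overexpression arm and 0.37 in the knockdown arm (limma adjusted p = 0.681 and 0.935).

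**Figure D4:**
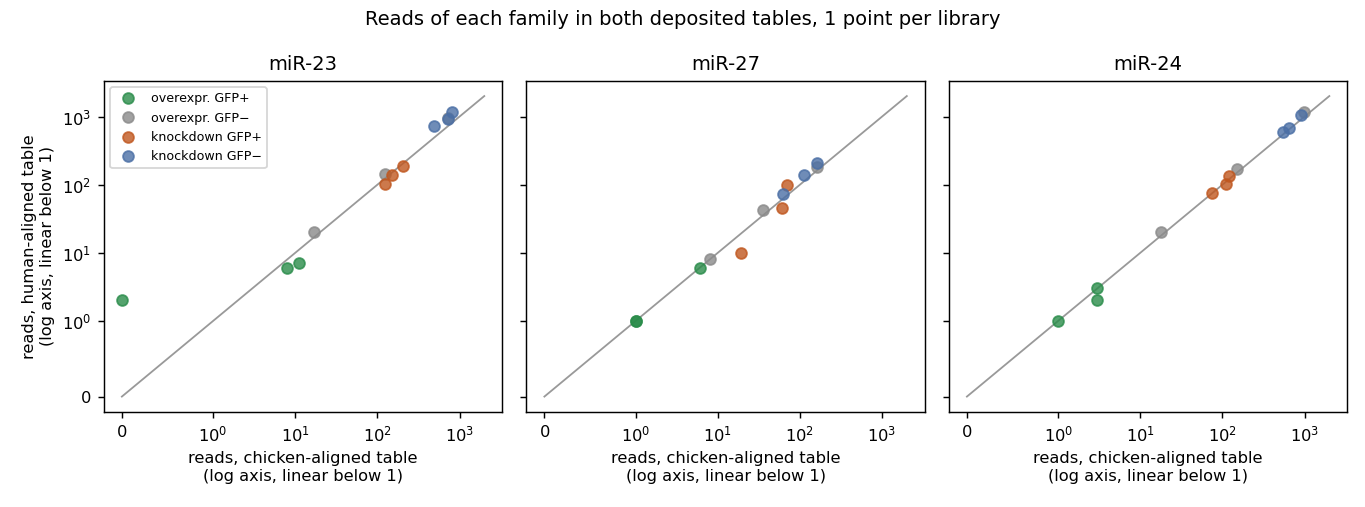
Recovered reads of miR-23, miR-27 and miR-24 in each library, human-aligned against chicken-aligned, 1 point per library, on log axes that are linear below 1, with the line of equal reads. Points of miR-23 lie above the line of equal reads in GFP− libraries and below it in GFP+ libraries with a chicken-aligned read. The median ratio of human-aligned to chicken-aligned reads was 1.16 for miR-23, 1.06 for miR-24 and 1.05 for miR-27. Single libraries spanned 0.636 to 1.49, 0.667 to 1.18 and 0.526 to 1.41, so miR-24 and miR-27 also leave the line.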

How the data were processed

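Small RNA libraries of sorted chick cells were analysed from 2 deposited tables, one aligned to chicken and one to human. Per the submitters' processing notes, FastQC 0.11.5, cutadapt, STAR 2.7.0f and hg38 were used. The labels and files state no chicken build, counting tool, strand setting or scaling. Per hairpin, the values deposited by the authors are a normalized signal, not counts. Dividing by the smallest value of a library gave whole reads for 100% of values above 0, within 0.001 reads. No per-sample column was left unused (0), and the authors' own sheet of miR-302 ratios was not used.

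Repeated hairpin names were dropped after the first (61 of 911 chicken entries, 8 above 0, and 5 of 1918 human entries, 3 above 0). Hairpins with a mean of at least 10 were tested on log2(value + 1) with limma 3.58.1 (R 4.3.3, 4 group means, trend, two-sided) and called at a Benjamini-Hochberg adjusted p under 0.05. As the values were not raw counts, edgeR 4.0.16 (quasi-likelihood) and DESeq2 1.42.0 on the recovered reads were alternatives, and the fits were tested on simulated data. Sums and ratios were compared on log2(value + 1) by exact two-sided permutation tests of 3 libraries against 3. A value of 0 was given a limit of 3 reads, and shares a 95% Wilson interval. Human depth was 518 to 254098 hairpin reads.

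The hairpins, the lists of other cell types (matched by family number) and the tests were chosen with earlier results of these data known. Named hairpins were every member by name, the 5 most like their sum, up to 3 tested members of each list and up to 4 on the same chromosome, by highest mean. Of 850 chicken names 779 were matched to RefSeq symbols (GRCg7b), used for chromosome and neighbour order only. Same-numbered libraries deviated together within each arm, with correlations across 132 hairpins of 0.207, 0.324 and 0.111 (overexpression) and 0.15, 0.379 and 0.144 (knockdown). The numbers from the sample titles were therefore taken as pairs there, but only for pair counts, sign-flip tests and a replicate block as an alternative. The main limma fits and the permutation tests were unpaired. In the human-aligned table of the same libraries these correlations, across 114 hairpins, were 0.166, 0.36 and −0.126 (overexpression) and 0.041, −0.067 and −0.139 (knockdown), so the pairing rests on 1 table. Different-numbered libraries of the chicken-aligned table gave −0.389 to 0.113 (overexpression) and −0.284 to 0.192 (knockdown). These ranges overlap with the same-numbered values, so the pairing is only weakly borne out. Deviations from a shared group mean are tied to each other, so these correlations are not independent. Between GFP− groups of that table same-numbered libraries gave −0.339, −0.349 and 0.364, and different-numbered ones up to 0.532. No pairing was taken there.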

Additional observations from a re-analysis of the deposited data

How the results depend on the processing

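Of 450 recomputed values for 43 results, 420 were the same by the rule of their kind. The log2 fold of a hairpin had to keep its direction and side of the threshold. A sum or ratio had to keep its direction only, whatever its p value, and a count of calls its value. The likeness of the 5 hairpins most like the cluster had no such rule and could not count as the same. The 420 therefore does not measure how firm the results are. The call of gga-mir-24 in the overexpression arm held with TMM scaling, another pseudocount, edgeR, DESeq2 and the replicate block (adjusted p = 0.018 with the pairing, limma), and the block changed no other call of the cluster. With no filter on low values the count of cluster hairpins called there was 0 in both tables (limma adjusted p = 0.062 for gga-mir-24 and 0.164 for hsa-mir-24-2). Leaving out 1 library gave 0 to 1 calls in either table, with 0 without overexpression GFP− replicate 3 (limma adjusted p = 0.0531 and 0.0528). Over all hairpins, 14 calls in the knockdown arm became 25 with edgeR and 36 with DESeq2, and 10 in the human-aligned table became 46 with either, while 21 human-aligned calls in the overexpression arm became 8 with no filter. Log2 folds that changed sign were all uncalled. In the overexpression arm gga-mir-27b was 0.11 with edgeR and 0.17 with DESeq2, and leaving out 1 library gave −0.47 to 0.17 for it and −3.60 to 0.13 for gga-mir-23b. There hsa-mir-23b was 0.061 with DESeq2 and −1.57 to 0.57 without 1 library, and hsa-mir-27b −0.037 to 0.502. In the knockdown arm hsa-mir-23b was −0.065 to 0.742 without 1 library. Between GFP− groups gga-mir-23b was −0.008 with TMM scaling and −0.077 to 0.24 without 1 library. The summed cluster in the knockdown arm was 0.034 as a share of all hairpin values, and the human-aligned miR-23 to miR-27 difference in the overexpression arm was −1.305 to 0.066 without 1 library. The cause was not tested, beyond the fewer reads or libraries that a setting leaves. Depth limits the overexpression GFP+ group most, with 34 reads of the cluster. The likeness of other hairpins without overexpression GFP+ replicate 2 was chosen after seeing the data.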
